A study of Equus caballus with 6 samples.

Results

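The genes described here are the receptors for platelet-derived growth factor (PDGF), PDGFRA and PDGFRB, with the PDGF ligands PDGFC and PDGFD. They were taken by symbol from a table of 12270 gene rows, which holds these 4 of the 6 symbols sought. PDGFA and PDGFB were not analysed here. The receptors were picked out because their levels in the 2 tissues had been seen to lie in opposite directions, so their difference between the tissues is given as a description, with no test. The ligands came with them by name.

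RNA was sequenced from 6 libraries of horse (Equus caballus) blastocysts recovered on day 8 from mares stimulated to shed several oocytes. Of these, 3 libraries hold inner cell mass (ICM, the cells inside the blastocyst; libraries 15, 22 and 25) and 3 hold trophectoderm (TE, the outer epithelium; libraries 16, 23 and 24). All blastocysts were treated with the protease Pronase. TE was dissected by hand and ICM was purified by immunosurgery, which kills the outer cells with antibody and complement. Tissue and way of isolation thus cannot be told apart. The labels give neither breed nor the mare behind each blastocyst, and no genetic change or drug, and p-values measure only the spread between these libraries.

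PDGFRA and PDGFRB are receptor tyrosine kinases that pair when a dimeric PDGF ligand binds, phosphorylate each other and recruit adaptors that feed the RAS-ERK and PI3K-AKT cascades. PDGFRA binds ligands with A, B and C chains, and PDGFRB binds those with B and D chains. The C and D chains are secreted with an extra domain that proteases such as tissue plasminogen activator and urokinase remove. In mouse blastocysts PDGFRA is a known marker of primitive endoderm, or hypoblast, the layer that lines the cavity. PDGFRB is best known in pericytes and other mesenchyme.

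The libraries hold 6526212 to 10686659 reads in the genes of the table. ICM 25 stands apart from the other ICM libraries, so values are also given without it where it matters. The tissue labels were checked against defining markers. GATA3, a trophoblast regulator, lay at 30.9 to 36.6 RPKM (reads per kilobase of transcript, scaled between libraries) in TE and 1.78 to 5.88 in ICM. NANOG, a factor of the pluripotent epiblast, lay at 12.4 and 14.1 RPKM in ICM 22 and 15, 1.75 in ICM 25 and at most 0.16 in TE. Not every marker followed these. Of 11 trophectoderm markers 10 had the higher mean in TE and 1 in ICM. Of 13 epiblast markers 11 had the higher mean in ICM and 2 in TE, among the latter ESRRB (1.55 ± 0.80 RPKM in ICM, 3.79 ± 0.37 in TE). In ICM 25, 6 of the 13 were above every TE library, 3 below every one and 4 within the TE range.

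PDGFRA was the more abundant receptor in every ICM library. It stood at 18.6 RPKM in ICM 15, 18.7 in ICM 22 and 6.14 in ICM 25, and at 0.83 in TE 16, 0.65 in TE 23 and 2.58 in TE 24. The tissues did not overlap, and ICM 25 was the lowest ICM library and TE 24 the highest TE library. The means were 14.5 ± 7.22 RPKM in ICM and 1.35 ± 1.06 in TE (SD, n = 3 each), a ratio of 10.7. On the scale log2(RPKM + 1) the difference, ICM minus TE, was 2.66 (SE 0.46). The mean ICM level became 13.8 times that of TE without ICM 25 and 19.5 times without TE 24, so the size of the ratio rests on the latter library in particular.

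PDGFRB showed the reverse order. It stood at 0.83 RPKM in ICM 15, 0.73 in ICM 22 and 1.149 in ICM 25, and at 4.34 in TE 16, 4.40 in TE 23 and 5.61 in TE 24. Every TE library was above every ICM library, and ICM 25 and TE 24 were the highest of their tissues. The means were 0.90 ± 0.22 RPKM in ICM and 4.78 ± 0.72 in TE (SD, n = 3 each), which puts TE 5.29 times above ICM. The difference on the log2(RPKM + 1) scale was -1.60 (SE 0.24). Without ICM 25 the ratio of TE to ICM was 6.12, and without TE 24 it was 4.83.

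The authors' deposited table gives the same ratios of ICM over TE, 10.7 for PDGFRA and 0.189 for PDGFRB. They are computed from the same normalized signal as the RPKM, so they are no separate support. In bulk tissue, fewer cells that carry a receptor and less of its RNA per cell cannot be told apart.

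**Figure D1:**
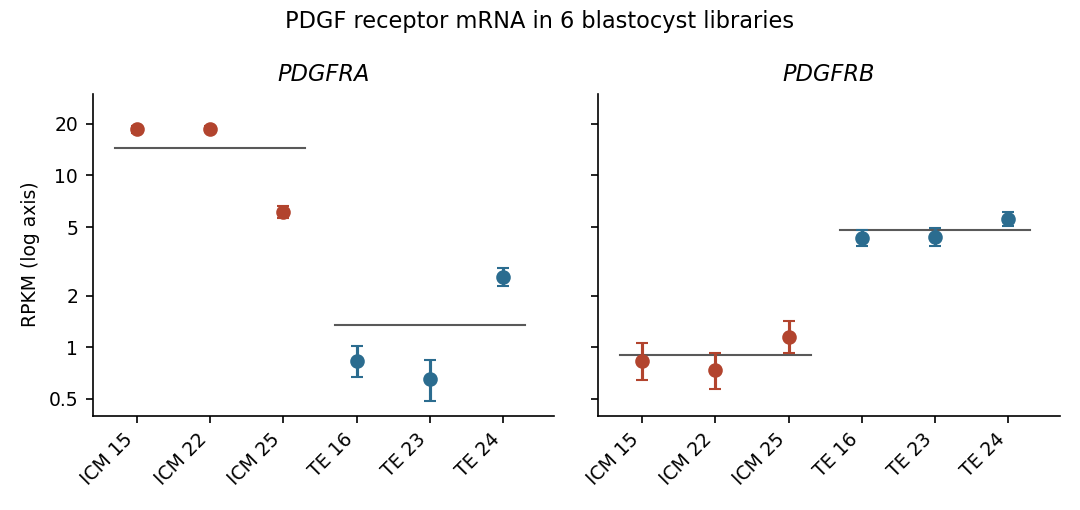
RPKM of PDGFRA (left) and PDGFRB (right) in each library on a log axis, ICM in red and TE in blue; points are libraries, bars are 95% Poisson intervals of the read count and grey lines are tissue means. PDGFRA lies at 6.14 to 18.7 RPKM in ICM and 0.65 to 2.58 in TE, and PDGFRB at 0.73 to 1.149 in ICM and 4.34 to 5.61 in TE.

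The reads behind these values show how much of the scatter is counting error. PDGFRA had 1973, 2415 and 641 reads in ICM 15, 22 and 25, and 94, 54 and 283 in TE 16, 23 and 24. The 95% exact Poisson interval of ICM 25 ran from 5.67 to 6.63 RPKM and that of ICM 15 from 17.8 to 19.4, so ICM 25 differed from ICM 15 by more than counting error. In TE 24 the interval was 2.29 to 2.90 RPKM, above the 0.67 to 1.02 of TE 16. PDGFRB had 66, 71 and 90 reads in the ICM libraries and 368, 274 and 462 in the TE libraries. Its intervals overlapped among all 3 ICM libraries, the highest reaching 0.92 to 1.41 RPKM in ICM 25 and the lowest 0.57 to 0.92 in ICM 22. PDGFRA varied more within a tissue than PDGFRB did in these libraries. Its highest library was 3.05 times its lowest in ICM and 3.96 times in TE, and for PDGFRB these ratios were 1.57 and 1.29. Reads of amplified cDNA without molecular identifiers are not independent molecules, so such intervals cover counting error only.

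The balance of the receptors within a library does not depend on scaling between libraries. PDGFRA exceeded PDGFRB 22.4 times in ICM 15, 25.5 times in ICM 22 and 5.34 times in ICM 25. PDGFRB exceeded PDGFRA 5.22 times in TE 16, 6.77 times in TE 23 and 2.18 times in TE 24. Each library thus had the same dominant receptor as the others of its tissue, with ICM 25 and TE 24 the least one-sided. As a share of the summed RPKM of both receptors, PDGFRA made up 84.2% to 96.2% in ICM and 12.9% to 31.5% in TE. The sum itself was 15.4 ± 7.01 RPKM in ICM and 6.14 ± 1.78 in TE (SD, n = 3 each). It overlapped between the tissues, since ICM 25 summed to 7.29 RPKM and TE 24 to 8.19.

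The ligand transcripts did not pass the test for a difference between the tissues. PDGFC, whose protein binds PDGFRA, stood at 0.96 RPKM in ICM 15, 1.76 in ICM 22 and 2.64 in ICM 25, and at 1.39, 2.83 and 1.96 in TE 16, 23 and 24. The ranges of the tissues overlapped. Its log2 difference was -0.15 (SE 0.31, 95% interval -0.85 to 0.54), with an adjusted p of 0.85 from limma over all 9436 genes tested. PDGFD, whose protein binds PDGFRB, stood at 2.59 RPKM in ICM 15, 0.98 in ICM 22 and 0.60 in ICM 25, and at 0.89, 1.69 and 1.201 in TE 16, 23 and 24. ICM held both its highest and its lowest library. Its log2 difference was 0.0089 (SE 0.33, 95% interval -0.74 to 0.76, limma adjusted p = 0.99). These intervals leave room for differences of under 1 unit of log2(RPKM + 1) in either direction. At levels this low that scale understates changes, so the ratio of RPKM could be larger than such a unit implies.

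The ICM libraries ordered the ligands in opposite ways. PDGFC was lowest in ICM 15, on 42 reads (interval 0.69 to 1.29 RPKM), and highest in ICM 25, on 114 reads (2.18 to 3.17). PDGFD was highest in ICM 15, on 96 reads (2.10 to 3.16), and lowest in ICM 25, on 22 reads (0.38 to 0.91). Neither pair of intervals overlapped. PDGFC made up 27.0% of the summed RPKM of these ligands in ICM 15, 64.3% in ICM 22 and 81.4% in ICM 25, and 61.1% to 62.6% in the TE libraries. Summed, the ligands came to 3.18 ± 0.41 RPKM in ICM and 3.32 ± 1.13 in TE (SD, n = 3 each).

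Levels per length put the 4 genes in a different order in each tissue. In ICM the order of the means was PDGFRA, PDGFC (1.79 ± 0.84 RPKM), PDGFD (1.39 ± 1.06) and PDGFRB. The lowest ICM value of PDGFRA was above the highest of PDGFC, and the ranges of PDGFC, PDGFD and PDGFRB overlapped. In TE the order was PDGFRB, PDGFC (2.06 ± 0.72), PDGFRA and PDGFD (1.26 ± 0.41). The lowest TE value of PDGFRB was above the highest of PDGFC, and the ranges of the other genes overlapped. The ICM mean of PDGFRA was above that of 81.0% of the rows of the table, and the TE mean of PDGFRB above 55.3%. The ligands were above 28.5% to 37.9% of rows in either tissue.

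KIT, KITLG and the VEGF genes are the nearest relatives of this system in the table. KIT, the receptor for stem cell factor, belongs to the same receptor class and stood at 4.92 RPKM in ICM 15, 4.73 in ICM 22 and 1.09 in ICM 25, and at 2.40, 0.65 and 2.0 in TE 16, 23 and 24. Like PDGFRA it was lowest among ICM libraries in ICM 25, but its tissues overlapped (log2 difference 0.69, SE 0.45, limma adjusted p = 0.49). KITLG, which encodes stem cell factor, stood at 1.41, 2.68 and 1.58 RPKM in ICM 15, 22 and 25 and at 6.41, 7.58 and 4.03 in TE 16, 23 and 24. All TE values were above all ICM values, with a log2 difference of -1.27 (SE 0.30) that missed the threshold (limma adjusted p = 0.074).

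VEGFA, which encodes the main growth factor for vessels, also had no overlap, at 3.81, 9.01 and 9.65 RPKM in ICM 15, 22 and 25 and 17.0, 24.2 and 20.7 in TE 16, 23 and 24. Its log2 difference was -1.42 (SE 0.34, limma adjusted p = 0.077). VEGFB, a related ligand, was at 2.66 ± 1.57 RPKM in ICM and 2.83 ± 0.62 in TE (limma adjusted p = 0.87). Of these 4 genes 0 were called over all genes, where 1.87% of all genes tested were called and 24.6% had no overlap. An unadjusted p under 0.05 by limma was found for 2 of the 4 and for 1592 of all 9436 genes tested. Without ICM 25, KITLG (limma adjusted p = 0.040) and VEGFA (adjusted p = 0.017) passed, in a comparison that called 11.5% of all genes. The other 12 symbols of these lists, CSF1R, KDR and FLT1 among them, were not analysed here.

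**Figure D2:**
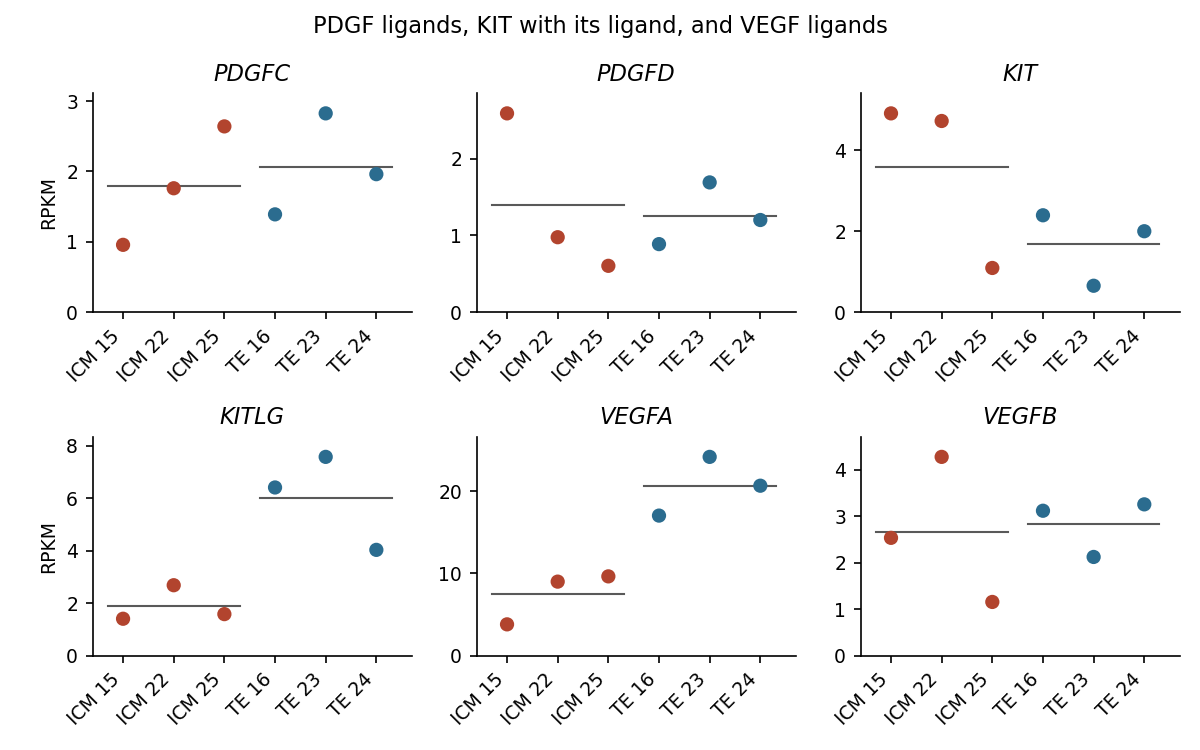
RPKM of PDGFC, PDGFD, KIT, KITLG, VEGFA and VEGFB in each library, ICM in red and TE in blue, with grey lines at the tissue means and a linear axis from 0 in each panel. PDGFC and PDGFD overlap between tissues, while KITLG (1.41 to 2.68 in ICM, 4.03 to 7.58 in TE) and VEGFA do not.

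Few of the genes through which PDGF receptors act passed the test between the tissues. The lists name 64 symbols, of which 54 have a row. Across ligands, processing enzymes, receptor partners, the RAS, ERK and AKT cascade and attenuators, 46 genes could be tested besides the receptors. Of these, 1 was called with more in ICM and 0 with more in TE, or 2.17%. Over all genes tested 1.87% were called, 0.933% in each direction. Voom called 1 of the 46 and 125 of all 9436 genes tested. An unadjusted p under 0.05 by limma was found for 3 of the 46 and for 1592 of all genes tested. The ranges of the tissues did not overlap for 5 genes that were higher in ICM and 3 that were higher in TE, or 17.4%. Over all genes this share was 24.6%, made up of 6.81% higher in ICM and 17.8% higher in TE. The median log2 difference of the 46 was 0.018, and that of all genes tested was -0.15. Without ICM 25, 3 were called with more in ICM and 1 with more in TE, where 11.5% of all genes were called and their median was -0.010.

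The gene called was PTPN12, among the attenuators. It encodes a tyrosine phosphatase that acts on several receptor kinases. It stood at 23.1, 22.1 and 17.4 RPKM in ICM 15, 22 and 25 and at 7.15, 6.09 and 7.55 in TE 16, 23 and 24. ICM was above TE in all 3 libraries, at 20.8 ± 3.02 against 6.93 ± 0.76 RPKM, a ratio of 3.01. The log2 difference was 1.46 (SE 0.23, limma adjusted p = 0.027). The call was lost without ICM 15 (limma adjusted p = 0.076), ICM 22 (0.061), TE 16 (0.16), TE 23 (0.19) or TE 24 (0.13). In that order, these fits called 18, 76, 0, 1 and 1 of all 9436 genes tested. Without ICM 25 the call was kept (limma adjusted p = 0.0038), where 1086 genes were called. The log2 difference stayed between 1.38 and 1.58 over all 6 such fits. The other 7 attenuators tested were not called. CBL, a ubiquitin ligase that marks activated receptors for breakdown, had the next smallest p, at 2.89 ± 0.62 RPKM in ICM and 2.12 ± 0.53 in TE (limma adjusted p = 0.57).

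Direct partners of the receptors numbered 24 in the table, of which 21 were tested. Limma and voom each called 0, and 1 had an unadjusted p under 0.05 by limma. The adaptor GRB10 was that gene, at 4.53, 3.64 and 1.17 RPKM in ICM 15, 22 and 25 and 0.71, 1.13 and 1.60 in TE 16, 23 and 24. Again ICM 25 was the ICM library that overlapped TE, and the limma adjusted p was 0.29 with it and 0.020 without it. GAB1, a docking protein for PI3K and the phosphatase SHP2, had 23.5 ± 3.17 RPKM in ICM and 16.1 ± 1.42 in TE without overlap (limma adjusted p = 0.30). The median log2 difference of the list was 0.091.

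In the RAS, ERK and AKT cascade 11 of 12 genes were tested. Limma and voom each called 0, and 0 had an unadjusted p under 0.05 by limma. MAPK3, the kinase ERK1, was at 4.30 ± 2.23 RPKM in ICM and 7.29 ± 1.57 in TE (limma adjusted p = 0.35).

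Processing enzymes and co-receptors gave 4 tested genes of 6 in the table. Limma and voom each called 0, and 1 had an unadjusted p under 0.05 by limma. PCSK7, a proprotein convertase, was at 10.4, 18.1 and 21.4 RPKM in ICM 15, 22 and 25 and 32.2, 39.5 and 36.0 in TE 16, 23 and 24. Its tissues did not overlap, and its limma adjusted p was 0.099, and 0.015 without ICM 25. FURIN, a convertase that cleaves PDGF precursors, was at 3.88 ± 0.42 RPKM in ICM and 4.39 ± 0.18 in TE (limma adjusted p = 0.80).

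PLAT and PLAU stayed below the filter for testing and are named after their values were seen, because 1 library holds most of their reads. PLAT, tissue plasminogen activator, which activates PDGF-C, was at 7.82 RPKM in ICM 25 (321 reads) and at 0.26 to 1.16 in the other 5 libraries. PLAU, urokinase, which activates PDGF-D, was at 12.9 RPKM in ICM 25 (506 reads), 0.025 in ICM 15 (1 read) and 0.38 to 0.61 in ICM 22 and the TE libraries.

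**Figure D3:**
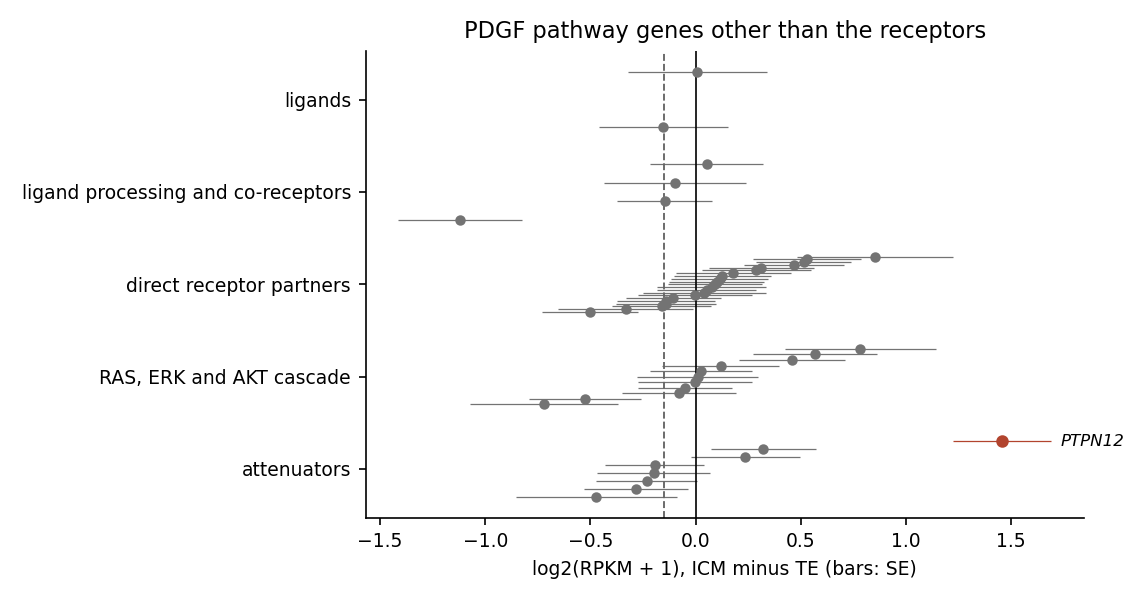
Difference between ICM and TE in log2(RPKM + 1) for the 46 tested pathway genes other than the receptors, grouped by role; points are genes, bars are SE, the dashed line is the median of all genes tested (-0.15) and red marks the gene called by limma. Only PTPN12 at 1.46 is called among these genes.

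Marker genes of the cell types that the libraries could hold are given beside the receptors. The hypoblast list, with 13 of its 19 genes in the table, summed to 119 RPKM in ICM 15, 129 in ICM 22, 54.1 in ICM 25 and 51.7 to 63.2 in TE. The sum of ICM 25 lay within the TE range. PDGFRA in ICM 25, at 6.14 RPKM, was 2.38 times that of the highest TE library. Single members of the hypoblast list did not move together. In ICM 25, 7 of the 13 were below every TE library, 4 were above every TE library and 2 lay within the TE range. Among those below was the factor GATA4, at 2.33 RPKM in ICM 25 and 5.595 to 7.93 in TE. Among those above were the ligand BMP2 (6.12 RPKM, and at most 0.96 in TE), the apolipoprotein APOA1 (8.27, and at most 4.88) and the matrix protein SPARC (5.36, and at most 2.90). TE 24, the TE library with the most PDGFRA, also had the highest hypoblast sum in TE, at 63.2 RPKM. The epiblast list, with 13 of 15 genes in the table, summed to 262, 269 and 105 RPKM in ICM 15, 22 and 25 and to 118 to 149 in TE. The part of these cell types in the PDGFRA values was not tested.

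For PDGFRB the relevant lists are trophectoderm and mesenchyme. Trophectoderm markers, 11 of 15 in the table, summed to 55.8, 95.02 and 68.4 RPKM in ICM 15, 22 and 25 and to 178 to 220 in TE. Within ICM this sum was highest in ICM 22, the library with the least PDGFRB. GATA3, GATA2, TFAP2C, CDX2, DLX5, GRHL1, TEAD4 and ELF3 were likewise highest in ICM 22. TFAP2A, GRHL2 and KRT7 were highest in ICM 25, the ICM library with the most PDGFRB. The part of trophectoderm cells in the PDGFRB values was not tested. Mesenchyme and pericyte markers, 9 of 16 in the table, summed to 27.7 to 37.1 RPKM in ICM and 8.41 to 17.5 in TE. The mean was above that of TE in ICM for 8 of the 9 and below it for 1, and 5 of the former had no overlap. Of the 6 that were tested, 3 had no overlap with more in ICM, where 6.81% of all genes tested did. Limma and voom each called 0 of the 6, where limma called 1.87% and voom 125 of all 9436 genes tested. An unadjusted p under 0.05 by limma was found for 4 of the 6 and for 1592 of all genes tested. COL1A2, a fibrillar collagen, stayed below the filter for testing. It was at 0.018 to 0.036 RPKM in TE and 9.46, 6.07 and 0.35 in ICM 15, 22 and 25. RGS5, a pericyte marker, was at 1.17 to 1.56 RPKM in TE and 2.72 to 5.06 in ICM. THY1 had 0 reads in TE 16 and at most 0.43 RPKM in the other TE libraries. It passed the filter for testing only through ICM, where it is high, so its place in these counts supports no statement. NOTCH3, a receptor of pericytes, was also below the filter and had the higher mean in TE, at 0.53 ± 0.10 RPKM against 0.35 ± 0.20 in ICM. The smooth muscle actin ACTA2 was at 0.30 and 2.01 RPKM in ICM 15 and 22, below the 2.40 to 3.70 of TE, and at 9.51 in ICM 25, and TAGLN likewise overlapped. Endothelial and blood lists had 1 of 7 and 2 of 9 genes in the table, with sums of at most 0.88 and 1.73 RPKM.

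**Figure D4:**
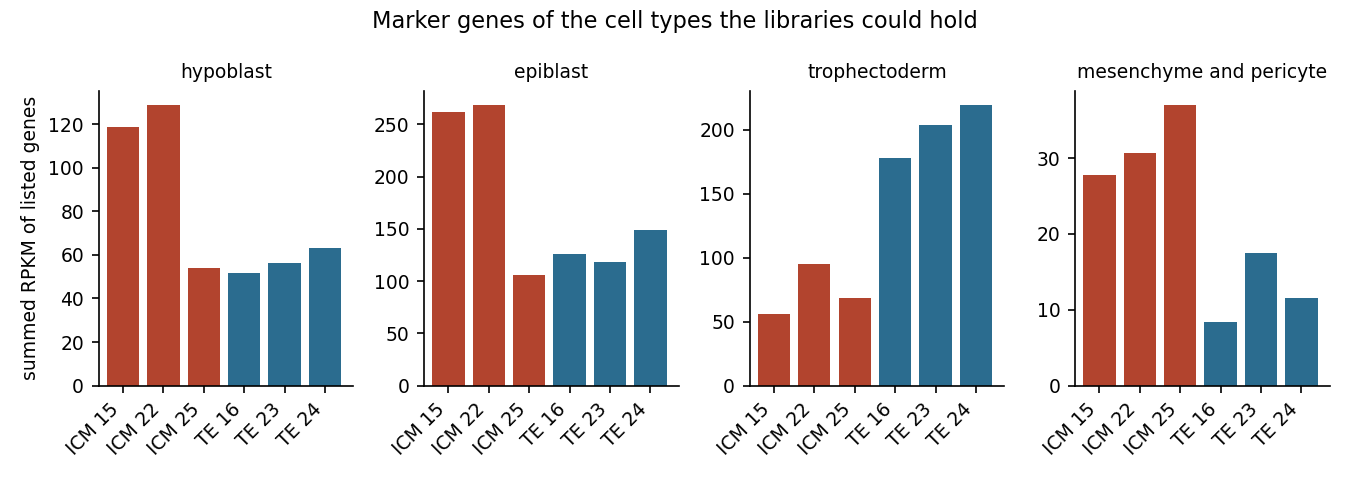
Summed RPKM of the listed marker genes in the table for hypoblast (13 genes), epiblast (13), trophectoderm (11) and mesenchyme and pericyte (9), ICM in red and TE in blue; bars are single libraries and start at 0. ICM 25 has 54.1 RPKM of hypoblast markers against 119 and 129 in the other ICM libraries, and TE has the lowest mesenchyme sums.

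In the coordinates of the deposited table, whose genome build is not named, PDGFRA lies on chromosome 3 (78140545 to 78182493) and PDGFRB on chromosome 14 (27860068 to 27878780). PDGFC lies on chromosome 2 (77226011 to 77432480) and PDGFD on chromosome 7 (13623963 to 13835741). The values are for whole genes, with 4329 counted bases for PDGFRA, 3246 for PDGFRB, 1789 for PDGFC and 1511 for PDGFD, so isoforms were not resolved.

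The genes beside the receptors were read for comparison. KIT, the nearest row below PDGFRA at a gap of 331 kb, and CHIC2, the nearest above at 110 kb, had log2 differences of 0.69 (SE 0.45) and 0.27 (SE 0.28), against 2.66 for PDGFRA. SRD5A3, LNX1 and FIP1L1, further out, had -0.34, -0.29 and -0.25, and none of these 5 tested neighbours was called. In the RefSeq gene order of the horse assembly TB-T2T, used for names only, KIT is likewise the next protein-coding gene on one side of PDGFRA, and CSF1R is next to PDGFRB.

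Around PDGFRB, HMGXB3 at a gap of 48.6 kb had a log2 difference of -0.29 (SE 0.25) and TCOF1 at 201 kb had -0.55 (SE 0.37). TIGD14, at 95.3 kb, stood at 3.08, 2.0 and 3.66 RPKM in ICM 15, 22 and 25 and 0.49, 0.38 and 0.77 in TE 16, 23 and 24 (log2 difference 1.32, SE 0.26, limma adjusted p = 0.045). All its TE values were below 1 RPKM, so it passed the filter for testing only through ICM, where it is high, and its call supports no statement about the locus. Limma adjusted p was 0.054 with no filter, 0.057 after median of ratios rescaling and 0.052 to 0.27 when any library but ICM 25 was left out. SLC26A2, a sulfate transporter, at 110 kb, was at 5.54 ± 0.80 RPKM in ICM and 3.95 ± 0.98 in TE without overlap (limma adjusted p = 0.46). CD74 and ARSI stayed below the filter, with 169 and 72 reads over ICM and 22 and 19 over TE.

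**Figure D5:**
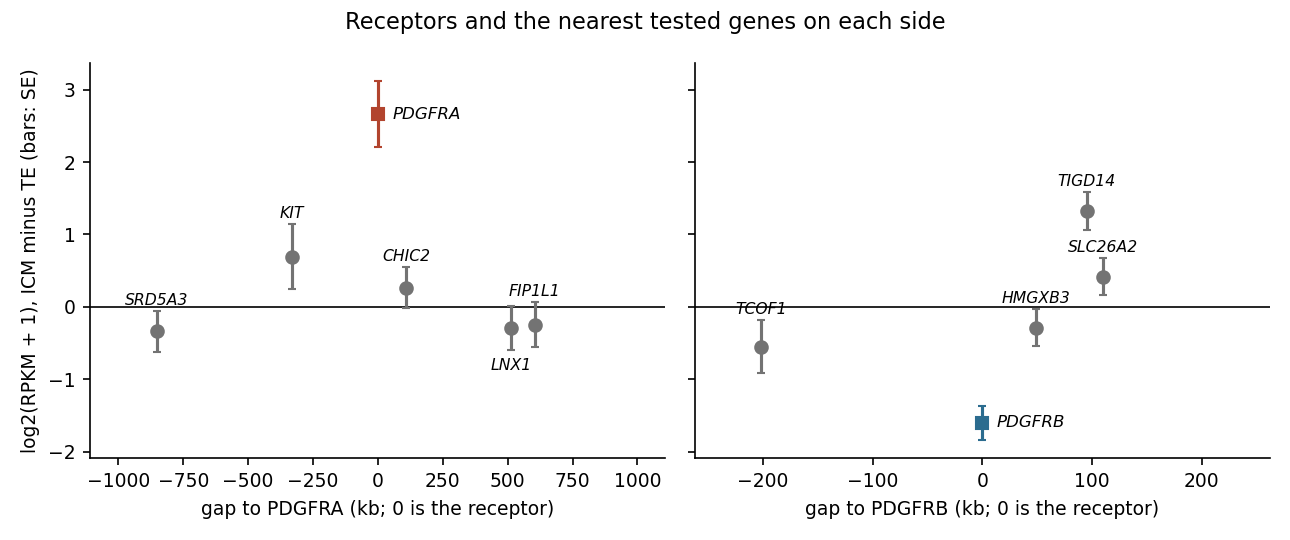
Difference between ICM and TE in log2(RPKM + 1) for PDGFRA (left) and PDGFRB (right), drawn as squares at 0, and for the nearest tested genes on each side as grey points, by gap in kb; bars are SE. PDGFRA at 2.66 and PDGFRB at -1.60 are drawn beside neighbours that run from -0.55 (TCOF1) to 1.32 (TIGD14).

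Other genes followed the receptors across the libraries. Likeness was measured as Pearson's r of log2(RPKM + 1) over the 6 libraries against the 9435 other genes tested. It is a description, since all genes share the libraries and their tissue split, and 116 genes (1.23%) had r above 0.95 with each receptor. Among the 5 most like PDGFRA were PPP1R14A, an inhibitor of myosin phosphatase (r = 0.996), the ETS factor ETV5 (0.994), CHML (0.994) and MHCB3 (0.993). ETV5, picked for this likeness, was at 4.22, 5.38 and 2.12 RPKM in ICM 15, 22 and 25 and 0.39, 0.43 and 1.05 in TE 16, 23 and 24. As for PDGFRA, ICM 25 was lowest in ICM and TE 24 highest in TE, which comes with that choice. The 5 most like PDGFRB were LOC100063295 (r = 0.996), the magnesium channel TRPM6 (0.994), DPM1 (0.994), C15orf39 (0.993) and the nuclear pore protein NUP210 (0.993). TRPM6 was at 1.71 to 2.31 RPKM in ICM and 5.64 to 5.88 in TE. PPP1R14A and MHCB3 lay below 1 RPKM in every TE library, and NUP210 did so in every ICM library. PPP1R14A, MHCB3 and NUP210 thus passed the filter only through the tissue where they are high. Their likeness supports no statement about the receptors.

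The ligands, which did not pass the test between tissues, had fewer genes at r above 0.95, 9 for PDGFC and 27 for PDGFD. PDGFC was most like IGF2R, the receptor that clears IGF2 (r = 0.976), IL11RA (0.975), ARHGEF40 (0.971), BNIPL (0.970) and USP19 (0.965). PDGFD was most like DOCK9 (r = 0.990), COG5 (0.989), PHF20 (0.978), CTDP1 (0.976) and CTNND1 (0.973). For each of these, ICM 15 and ICM 25 held the extremes within ICM, as for the ligand itself. They were picked for likeness over the same libraries, so the shared extremes support no statement about them.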

How the data were processed

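Total RNA of 3 ICM and 3 TE libraries was amplified and sequenced. Per the file headers, the deposited values are RPKM. The submitters' processing notes name FastQC and DESeq, which the authors used. The aligner, counter, strand setting, genome build and annotation are items not given in the sources used here. Reads of a gene and of an antisense neighbour that overlaps it therefore cannot be separated. Also deposited by the authors were DESeq's mean normalized signal, the ratio (fold) of ICM over TE, its log2 value and p-values; of these the fold is quoted. RPKM and the mean signal gave back whole reads within 0.001 for 100% of values up to 1000 reads, and gene lengths within 0.01 bases for 100% of rows. The scaling between libraries did not follow reads in genes alone. A read counted as 1.03 units of normalized signal in ICM 25 (6622207 reads in genes) and 1.30 in TE 23 (6526212). No row falls below 0.4 RPKM in more than 4 libraries.

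The 9436 genes that reached 1 RPKM in 3 or more libraries were fitted as log2(RPKM + 1), a scale that understates changes of low genes, with limma 3.58.1 in R 4.3.3 (trend, two-sided, Benjamini-Hochberg at 0.05). It was tested on simulated data. The members and gene lists were chosen with earlier results of these data known. Named were all members, list members called or with the 2 smallest p, related receptors and ligands, the 5 most alike genes and 3 neighbours a side. The alternatives were another pseudocount, other filters, rescalings, library weights, voom and leaving out each library. Results of some genes are not reported here.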

Additional observations from a re-analysis of the deposited data

How the results depend on the processing

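PDGFRA stayed higher in ICM and PDGFRB higher in TE under every alternative that gave a value. PDGFRB and the ligands gave none when 5 RPKM were required, which they did not pass. Leaving out 1 library moved the log2 difference of PDGFRA between 2.42 and 3.15 and that of PDGFRB between -1.69 and -1.50. Voom gave 3.49 and -2.43, and a pseudocount of 0.1 gave -2.29 for PDGFRB. PDGFC ran from -0.37 to 0.078 and PDGFD from -0.33 to 0.25 with 1 library left out, so neither has a stable direction, and PDGFD was -0.058 with a pseudocount of 0.1 and -0.054 by voom. FURIN turned to 0.014 after median of ratios rescaling. VEGFB turned to 0.18 and FIP1L1 to 0.036 with library weights. With 1 library left out they ran from -0.46 to 0.19 and from -0.53 to 0.010, turning without ICM 25.

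Over all genes, limma called 176 (88 higher in ICM and 88 in TE), 112 with a pseudocount of 0.1, 114 without any filter, 81 when 5 RPKM were required (29 and 52), 760 when libraries were weighted, and 0 to 1086 with 1 library left out. The 0, without TE 16, stood beside 983 genes at an unadjusted p under 0.05. Median of ratios rescaling called 128 higher in ICM and 64 in TE, and quantile normalization 129 and 77, as they moved the median log2 difference of all genes from -0.15 to 0.0053 and -0.027. Pathway members called were 2 higher in ICM and 1 in TE with library weights, and 0 to 3 and 0 to 1 with 1 library left out. Related receptors and ligands called were 2 with library weights and 0 to 2 with 1 library left out. The genes tested were held fixed in these fits. No paired analysis was possible because the tissues share no library number and the labels tie no ICM to a TE. Low read numbers limit the ligands most, with 22 to 114 reads a library.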
